A study of Mus musculus with 8 samples.

Results

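The genes examined here encode the receptors, signal transducers, inhibitors and a target enzyme through which macrophages respond to interleukin (IL)-4, IL-13 and IL-10. They are the receptor chains Il4ra, Il13ra1, Il2rg, Il10ra and Il10rb, the transcription factors Stat6 and Stat3, the inhibitors Socs1 and Socs3, and the enzyme Arg1. These 10 genes were taken by name from the 20308 genes in the files, with earlier results of these data known. All 10 were among the 13407 genes that passed the filter on low counts. RNA was measured in cells pulled down with beads against CD11b, a surface protein of microglia and other myeloid cells, from the right brain hemisphere of 4 CSF1 OE mice and 4 control mice. CSF1 OE mice carry a transgene that makes the secreted form of CSF1, the growth factor that activates the receptor CSF1R on microglia, in a subset of GFAP+ cells through the TRE/tTA system. The controls are labelled only as controls for the over-expression, and which transgenes they carry, if any, is not given in the sources used here. All mice were C57Bl/6 X CD1 F1 animals aged 14 or 15 days, and each mouse gave 1 library. The comparison asks whether microglia exposed to more CSF1 differ in the machinery that reads these 3 cytokines.

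IL-4 and IL-13 are made by T helper cells and other immune cells and drive macrophages towards the state often called M2 or alternative activation. IL-4 binds IL4Rα together with the common gamma chain, encoded by Il2rg, or with IL13Rα1, and IL-13 binds the pair of IL13Rα1 and IL4Rα, after which JAK kinases phosphorylate STAT6, which turns on genes such as Arg1. IL-10 binds a receptor of IL10Rα and IL10Rβ and acts mainly through STAT3, which turns on Socs3 and dampens inflammatory gene expression. SOCS1 and SOCS3 are inhibitors that block JAK kinases and receptors and so close the loop.

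Libraries of control mice held between 12908195 and 15475488 counts, and those of CSF1 OE mice between 12053280 and 14356538. A library floor of 3 counts corresponded to 0.177 to 0.266 CPM (counts per library size, after scaling by the TMM factors of edgeR), for counting error only. RNA of microglia markers was present in every library, with a summed level of 10 markers between 21514.5 and 39175 CPM. No unsorted tissue was at hand to set this level against. Control mouse 1934 stood apart, with the lowest microglia sum of the 8 mice and the highest sums of neuron markers (368 CPM, against 53.3 to 237 in the others) and oligodendrocyte markers (5924 CPM, against 1542 to 4835). In bulk RNA, fewer cells of a type and less RNA per cell cannot be told apart. Csf1 itself averaged 282 CPM in control mice and 322 in CSF1 OE mice (log2 fold change 0.19, adjusted p = 0.796, edgeR), and Csf1r averaged 9722 and 10091 CPM (0.054, adjusted p = 0.914, edgeR). These values do not check the transgene, which is driven in GFAP+ cells and not in the cells pulled down.

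None of the 10 genes was called changed in CSF1 OE mice, where a gene was called at an adjusted p under 0.05 and a fold change below 0.7 or above about its inverse in edgeR's quasi-likelihood test. Over all tested genes the same rule called 59, or 0.440%. Among the 10 genes, 6 had a fold change above 1 and 4 below, and the median log2 fold change was 0.040, beside -0.034 over all tested genes. 1 of the 10, Il4ra, had an unadjusted p under 0.05, as had 16.5% of all tested genes (10.1% with a higher value in CSF1 OE mice). In 1 of the 10, again Il4ra, the values of the groups did not overlap, as in 10.3% of all tested genes (6.84% higher). Adjusted p-values of the 10 ran from 0.149 to 0.999 (edgeR). These p-values rest on 4 mice against 4 mice and set the difference between the groups against the spread between mice of the same group.

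**Figure D1:**
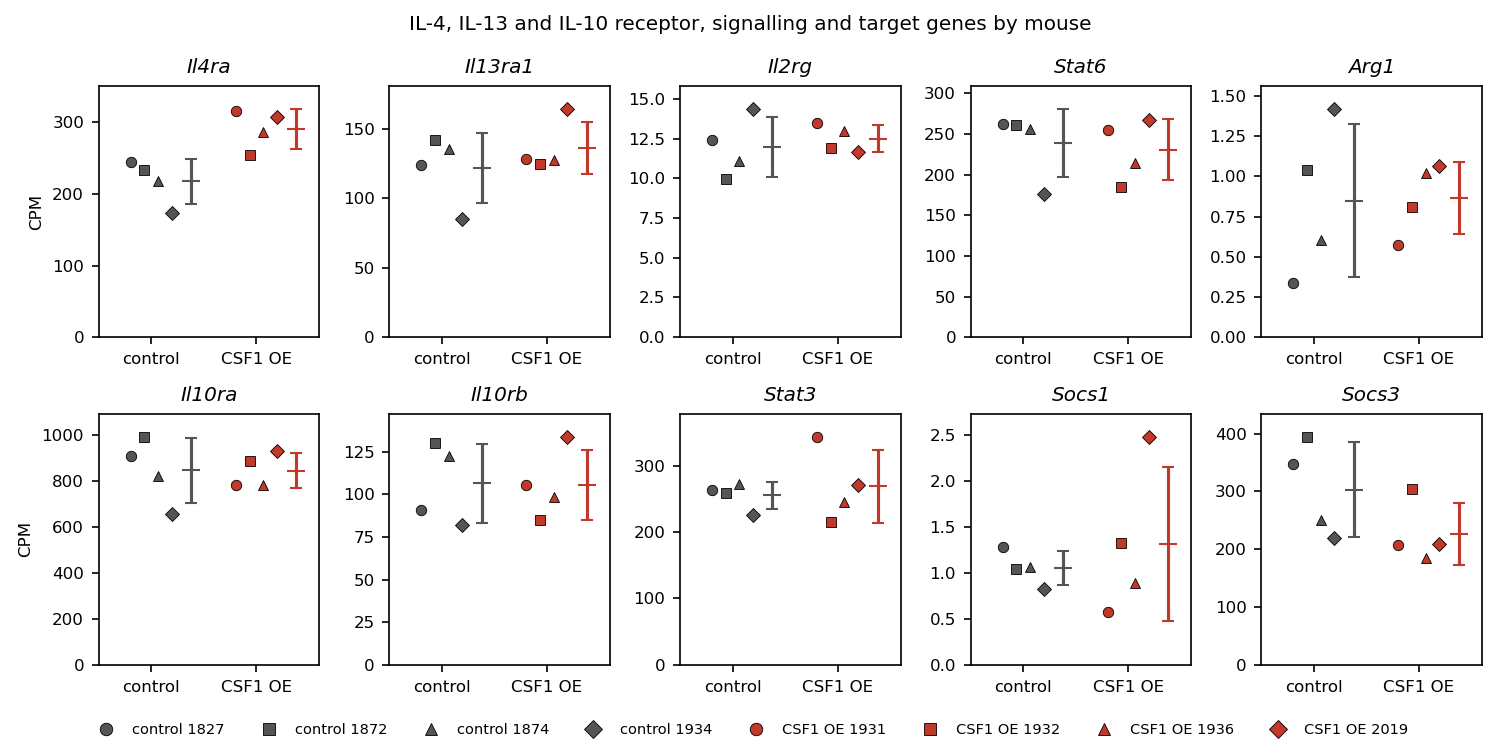
CPM (y axis, linear, from 0) of each of the 10 genes in the 4 control mice (grey) and the 4 CSF1 OE mice (red), 1 symbol per mouse, with the mean and SD beside the points. Il4ra is the 1 panel without overlap, between 174 and 244 CPM in control and between 254 and 317 CPM in CSF1 OE mice.

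Control mice expressed the 10 genes at levels that differed widely when CPM were divided by the length in kb of the longest coding GENCODE transcript. Il10ra was the most abundant, at 241 ± 40.8 CPM per kb (SD, n = 4), above 98.5% of the tested genes with a length. Socs3 followed at 119 ± 32.0 CPM per kb, above 96.8% of those genes. Stat6 (63.3 CPM per kb), Il10rb (57.5), Stat3 (42.2), Il4ra (41.4) and Il13ra1 (32.8) formed a middle group, in which the ranges over control mice of each gene and the next overlapped. Il2rg, at 7.17 ± 1.13 CPM per kb, lay near the middle of all genes, above 46.7% of them. Arg1 (0.575 CPM per kb) and Socs1 (0.361 CPM per kb) were near the floor of detection, above 6.62% and 3.26% of the genes, and their ranges overlapped. Il10ra over Socs3, Socs3 over Stat6, Il13ra1 over Il2rg and Il2rg over Arg1 were the steps between neighbours at which the ranges were apart in both groups. The order was nearly the same in CSF1 OE mice, where Il4ra, at 55.4 ± 5.29 CPM per kb, stood above Stat3, at 44.5 ± 9.09 CPM per kb, with overlapping ranges. With the length of all exons of a gene together (an alternative chosen after seeing the data), the ranks within the middle group changed, and Il4ra came after Stat6 and ahead of Il13ra1, Il10rb and Stat3.

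**Figure D2:**
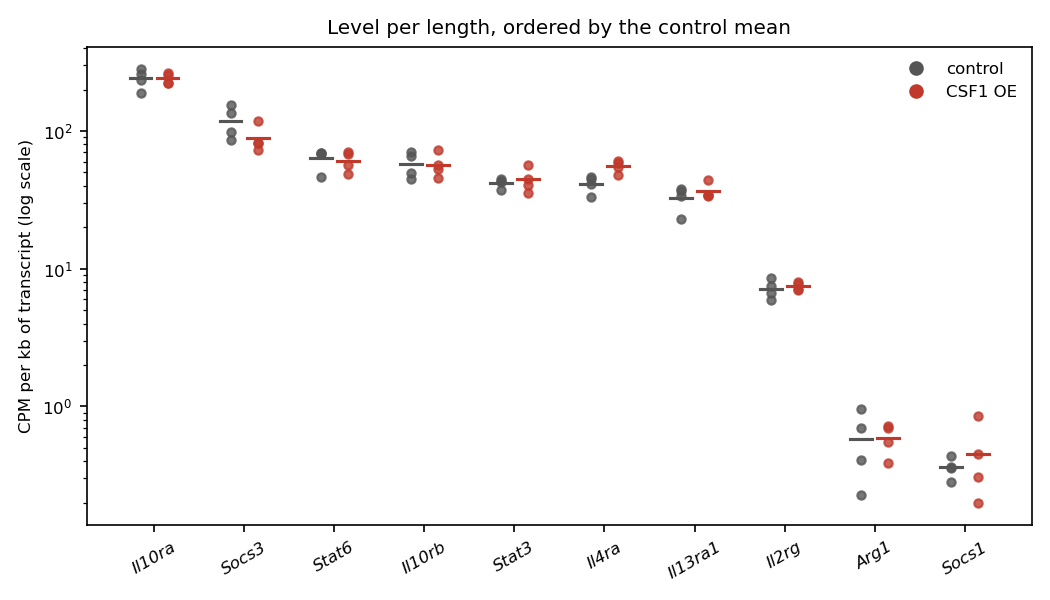
Level per length (y axis, CPM per kb of transcript, log scale) of the 10 genes ordered by the control mean, with 1 point per mouse and a line at each group's mean. Il10ra lies highest, at a control mean of 241 CPM per kb, and Arg1 and Socs1 lie lowest, at 0.575 and 0.361 CPM per kb.

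Among the receptor chains for IL-4 and IL-13, Il4ra had the largest difference between the genotypes and Il2rg a small one. Il4ra (chr7:125552120-125579474, plus strand) encodes the chain shared by both receptor types for IL-4 and IL-13. It was at 244, 234, 218 and 174 CPM in control mice 1827, 1872, 1874 and 1934, and at 317, 254, 286 and 308 CPM in CSF1 OE mice 1931, 1932, 1936 and 2019. Every CSF1 OE mouse was above every control mouse, and the gap between the nearest mice, 1932 and 1827, was small beside the spread within a group. The means were 218 ± 30.9 and 291 ± 27.8 CPM (SD, n = 4 per group), and the log2 fold change was 0.42 (standard error 0.12, 95% interval 0.14 to 0.70). The adjusted p of 0.149 (edgeR) missed the threshold. The fold of 1.34 also lay inside the fold thresholds, and by p the gene ranked 667 of 13407.

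Il13ra1 (chrX:36112110-36171259, plus strand) encodes the chain that joins IL4Rα to form the receptor for IL-13. It was at 124, 142, 136 and 85.3 CPM in the control mice and at 128, 124, 128 and 164 CPM in the CSF1 OE mice, in the same order of mice. The groups overlapped, with control mouse 1934 far below and CSF1 OE mouse 2019 far above the rest. The log2 fold change was 0.16 (standard error 0.16, 95% interval -0.21 to 0.53, adjusted p = 0.654, edgeR). Il2rg (chrX:101264378-101268255, minus strand), the common gamma chain also used by the receptors for IL-2, IL-7 and IL-21, was at 12.4, 9.96, 11.1 and 14.4 CPM in control and at 13.5, 11.9, 12.9 and 11.7 CPM in CSF1 OE mice. Its log2 fold change was 0.062 (95% interval -0.26 to 0.39, adjusted p = 0.845, edgeR), and the groups overlapped almost fully.

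The receptor chains were also set against each other within a mouse, which removes whatever scales a whole library. The ratio of Il4ra to Il13ra1 counts lay between 1.61 and 2.04 in control and between 1.87 and 2.47 in CSF1 OE mice, a log2 difference of 0.25, which was 0.14 within the animal numbers from 1931 to 1936 and 0.11 within the others. The ratio of Il4ra to Il2rg counts differed by 0.35 on the log2 scale. Neither difference passed the two-sided exact permutation test over the 70 assignments of the mice (p = 0.114 and p = 0.0857, both adjusted p = 0.343 over the 6 ratios computed), in which 4 mice against 4 allow no p below 0.0286. In both ratios the groups overlapped.

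Stat6, which carries the signal of both IL-4 and IL-13, and Arg1, its best known target, were close in the groups. Stat6 (chr10:127642986-127660957, plus strand) was at 262, 262, 256 and 176 CPM in control and at 255, 185, 214 and 267 CPM in CSF1 OE mice. The lowest mice were control 1934 and CSF1 OE 1932, and the groups overlapped. The means were 239 ± 41.9 and 230.4 ± 37.7 CPM, with a log2 fold change of -0.052 (95% interval -0.42 to 0.31, adjusted p = 0.888, edgeR). Arg1 (chr10:24915221-24927484, minus strand), which encodes the arginase that draws arginine away from nitric oxide synthesis, had 5, 15, 8 and 24 counts in control and 7, 11, 15 and 12 counts in CSF1 OE mice. These counts correspond to 0.336, 1.04, 0.605 and 1.42 CPM and to 0.575, 0.808, 1.02 and 1.06 CPM. Arg1 RNA was thus only a few times the floor of 3 counts in most mice of either genotype. The log2 fold change of 0.017 came with a 95% interval from -1.02 to 1.05 (adjusted p = 0.987, edgeR). That interval holds differences from about a halving to about a doubling, and it is not a limit of detection.

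The chains of the IL-10 receptor had nearly equal means in the genotypes. Il10ra (chr9:45253837-45269149, minus strand), the ligand-binding chain, was at 907, 992, 822 and 657 CPM in control and at 783, 887, 779.9 and 927 CPM in CSF1 OE mice. The control mice spanned the wider range and enclosed all CSF1 OE mice. Both means were 844 CPM (SD 143 and 74.3), the log2 fold change was -0.00037 (95% interval -0.32 to 0.32), and the adjusted p was 0.999 (edgeR). Il10rb (chr16:91406164-91425834, plus strand), the accessory chain, which also serves receptors for IL-22 and type III interferons, was at 91.0, 129.9, 122 and 82.3 CPM in control and at 105, 84.8, 98.5 and 134 CPM in CSF1 OE mice. Its log2 fold change was -0.011 (95% interval -0.42 to 0.40, adjusted p = 0.978, edgeR). The ratio of Il10ra to Il10rb counts differed by 0.016 on the log2 scale (two-sided exact permutation test, p = 0.886).

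Stat3 and Socs3, the transducer and the classical target of IL-10, had estimates of opposite sign, and neither passed the test. Stat3 (chr11:100885098-100939540, minus strand) was at 264, 259, 272 and 226 CPM in control and at 344, 215, 246 and 271 CPM in CSF1 OE mice. The CSF1 OE mice held both the highest and the lowest value, and the log2 fold change was 0.075 (95% interval -0.25 to 0.40, adjusted p = 0.812, edgeR). Socs3 (chr11:117966079-117970047, minus strand) was at 347, 395, 250.4 and 220.1 CPM in control and at 207, 304, 184 and 209 CPM in CSF1 OE mice. CSF1 OE mice 1931, 1936 and 2019 lay below all control mice, and CSF1 OE mouse 1932 lay within the control range. The means were 303 ± 81.6 and 226 ± 53.0 CPM, and the log2 fold change was -0.42 (standard error 0.22, 95% interval -0.91 to 0.069, adjusted p = 0.373, edgeR). The ratio of Socs3 to Stat3 counts, between 0.921 and 1.52 in control and between 0.603 and 1.41 in CSF1 OE mice, differed by -0.46 on the log2 scale (two-sided exact permutation test, p = 0.171, adjusted p = 0.343).

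Socs3 is also a gene of the acute stress response, and the summed level of 8 heat shock genes differed several fold between mice of the same genotype. That sum was 14952, 11538, 3829 and 11916 CPM in control mice and 3149, 19624, 3709 and 4663 CPM in CSF1 OE mice. CSF1 OE mouse 1932, with the highest heat shock sum, was also the CSF1 OE mouse with the highest Socs3, but control mouse 1934, with a higher heat shock sum than control mouse 1874, had the lower Socs3. The 13 immediate early genes summed to between 11109 and 18795 CPM in control and between 11493 and 15309 CPM in CSF1 OE mice. The part of either in the Socs3 values was not tested.

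Socs1 (chr16:10782240-10785536, minus strand), the inhibitor best known for acting on interferon and IL-4 signalling, had 19, 15, 14 and 14 counts in control and 7, 18, 13 and 28 counts in CSF1 OE mice. These were 1.28, 1.04, 1.06 and 0.828 CPM and 0.575, 1.32, 0.886 and 2.48 CPM. The CSF1 OE mice lay on both sides of the control range, and mouse 2019 alone was well above it. The log2 fold change of 0.31 had a 95% interval from -0.68 to 1.31 (adjusted p = 0.747, edgeR). The ratio of Socs1 to Stat6 differed by 0.18 and that of Stat3 to Stat6 by 0.10 on the log2 scale (two-sided exact permutation tests, p = 0.771 and p = 0.4).

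STAT dimers bind inverted repeats of TTC and GAA, with 3 bases between them for most STATs and 4 preferred by STAT6. The letters TTCNNNGAA and the same repeat with 1 more base between its ends, which read the same on both strands, were searched in the 250 bases before the RefSeq start of the members (build GRCm38.p6). A sequence was matched for 7 of the 10 genes, those other than Arg1, Il10ra and Il10rb. Of these 7 only Socs3 held a match, TTCNNNGAA, which 7.01% of all 32817 promoters of that length hold, beside 5.85% for the longer repeat and 12.4% for either. The pair of Socs stretches was chosen for display after the levels and matches of the genes were seen. Whether a match goes with the level of a gene was not tested. The Socs3 stretch is chr11:117969452-117969616 and the Socs1 stretch chr16:10785537-10785786, both minus strand and written 5′ to 3′. The Socs3 stretch holds 165 bases, cut where it met a GENCODE exon of the gene, and the Socs1 stretch holds 250. The capitals mark the match, at chr11:117969512-117969520, 154 to 146 bases before the RefSeq start. In GENCODE the Socs3 gene extends to chr11:117970047, so this stretch and its match lie inside the annotated gene and not upstream of it.
Socs3: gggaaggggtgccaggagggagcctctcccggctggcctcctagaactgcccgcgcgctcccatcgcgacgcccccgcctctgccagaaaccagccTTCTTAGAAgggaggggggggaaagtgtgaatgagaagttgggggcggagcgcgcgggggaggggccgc
Socs1: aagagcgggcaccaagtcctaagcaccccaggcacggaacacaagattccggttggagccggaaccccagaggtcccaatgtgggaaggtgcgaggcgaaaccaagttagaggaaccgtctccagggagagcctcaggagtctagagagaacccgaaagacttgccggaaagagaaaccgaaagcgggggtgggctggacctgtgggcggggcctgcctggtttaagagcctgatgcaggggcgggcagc
A match describes letters and is not a bound site, and no match says only that these letters are not in the window.

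The 95% intervals give the range of differences compatible with these libraries. For Il2rg, Stat6, Il10ra, Il10rb and Stat3, 5 of the 10 genes, the whole interval lay inside the fold thresholds used for calling. For the other 5 genes it reached beyond them, upward for Il4ra and Il13ra1, downward for Socs3 and both ways for Arg1 and Socs1. Spread between mice was lowest for Il2rg in CSF1 OE mice, at a coefficient of variation of 6.79%, and highest for Socs1 in CSF1 OE mice, at 63.4%.

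**Figure D3:**
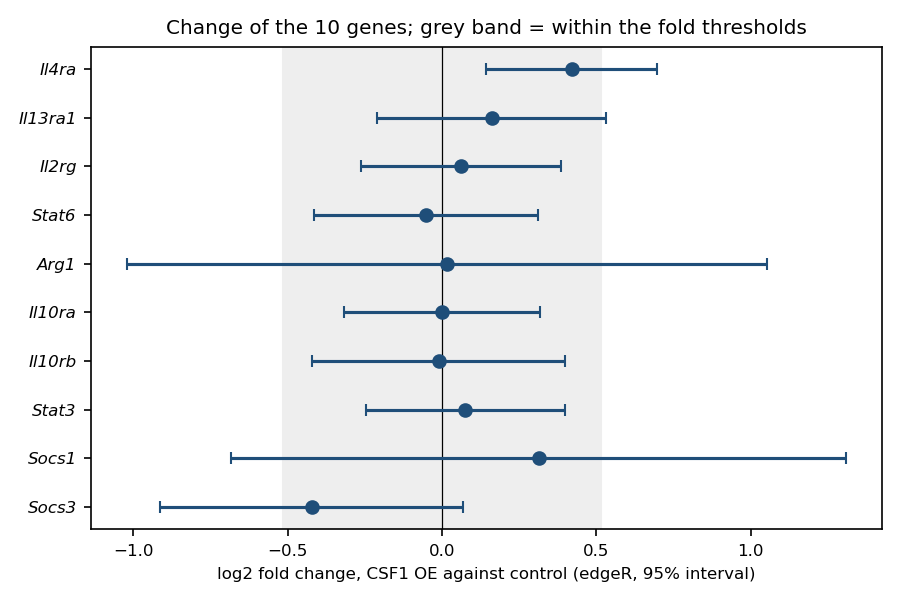
Log2 fold change of the 10 genes, CSF1 OE against control (x axis, edgeR, point with 95% interval), with the grey band between the fold thresholds. Il4ra (0.14 to 0.70) is the 1 gene whose interval does not include 0, and the intervals of Arg1 and Socs1 are the widest.

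Control mouse 1934, which stood apart in its markers, was the lowest control mouse in 8 of the 10 genes and the highest in the other 2, Il2rg and Arg1. Over all tested genes it was the lowest control mouse in 37.6% and the highest in 33.7%. CSF1 OE mouse 2019 was the highest of its group in 6 of the 10 genes, against 30.8% of all tested genes. The summed microglia markers were 37791, 38374, 33277 and 21514.5 CPM in control mice and 31489, 27972, 27734 and 39175 CPM in CSF1 OE mice, so that these same mice were the lowest and the highest. The 3 mice lowest in this sum were also the 3 lowest in Stat6. Il4ra was lowest in mouse 1934, the lowest in the sum, and was above all control values in every CSF1 OE mouse. The part of the microglia level in these values was not tested. Per 1000 CPM of the microglia sum (an alternative also chosen after seeing the data), Il4ra was 6.80 ± 0.882 in control and 9.33 ± 1.11 in CSF1 OE mice (SD, n = 4), a log2 difference of 0.46. The ranges then overlapped slightly, at 6.09 to 8.09 and 7.86 to 10.3, because mouse 1934 had the highest control value and mouse 2019 the lowest CSF1 OE value. The markers in that sum had log2 fold changes from -0.63 to 0.23, 4 above 0 and 6 below. The sum, which includes Csf1r, is thus not known to be the same per cell in both genotypes. Without mouse 1934 the log2 fold change of Il4ra was 0.34 (adjusted p = 0.189, edgeR) and without mouse 2019 it was 0.39 (adjusted p = 0.202, edgeR). Il13ra1 was 0.036 without mouse 1934 and 0.059 without mouse 2019, Stat6 was -0.16 and -0.13, and Socs3 was -0.54 and -0.39, none at an adjusted p under 0.05. Socs1 was -0.17 without mouse 2019, against 0.31 with it. Without mouse 1934 the log2 difference of the ratio of Il4ra to Il2rg was 0.16. Per 1000 CPM of the sum, Stat6 was 7.41 ± 0.648 and 7.32 ± 0.714.

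**Figure D4:**
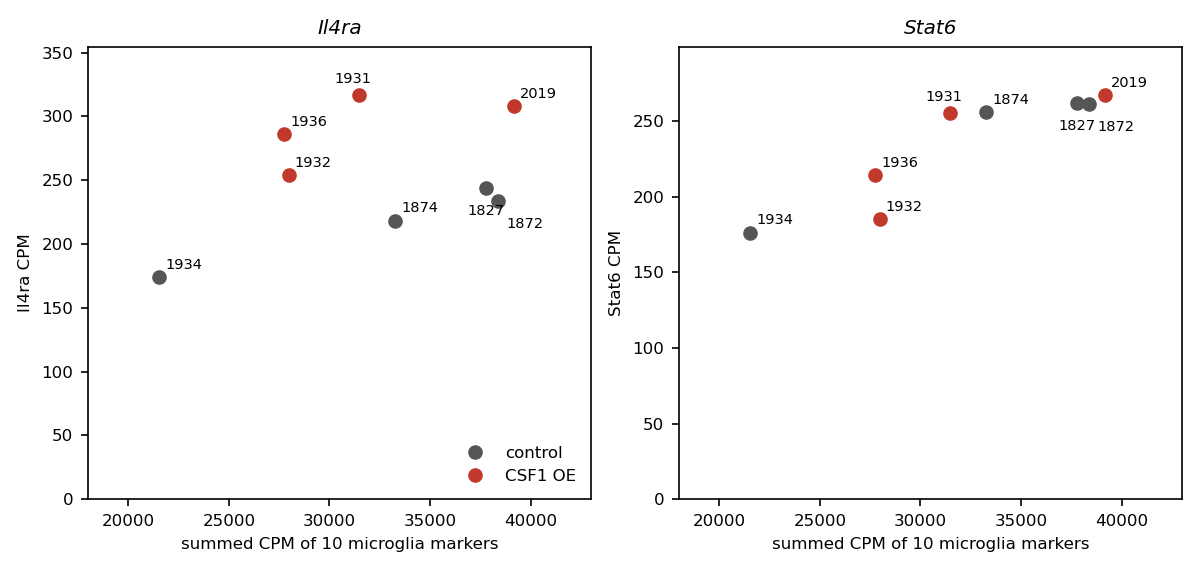
CPM of Il4ra (left) and Stat6 (right) on the y axis against the summed CPM of 10 microglia markers on the x axis, 1 point per mouse labelled by animal number, control in grey and CSF1 OE in red. The Stat6 points of both groups lie along 1 band. The CSF1 OE points of Il4ra lie above the control points, and mouse 1934 lies lowest in both panels.

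The animal numbers fall into those from 1931 to 1936, with 1 control and 3 CSF1 OE mice, and the other 4, with 3 control and 1 CSF1 OE mouse. Whether the numbers mark a litter or a batch is not given in the sources used here. Within the 2 ranges, Il4ra differed by 0.71 and 0.41 on the log2 scale, Il13ra1 by 0.57 and 0.30, and Socs3 by 0.041 and -0.63, in that order of ranges. In 7 of the 10 genes the difference was above 0 in both ranges, and in Il2rg, Arg1 and Socs3 the ranges had opposite signs. In both ranges the comparison rests on mouse 1934 or mouse 2019 as the lone animal of its group. With a term for the range in edgeR, Il4ra was called (log2 fold change 0.56, standard error 0.11, adjusted p = 0.0273), where the same fit called 9.50% of all tested genes. In that fit Il13ra1 had a log2 fold change of 0.43 and an adjusted p of 0.0283 but did not reach the fold threshold, and 11.9% of all tested genes had an adjusted p under 0.05 there. DESeq2 gave Il4ra an adjusted p of 0.0236, as it gave 6.04% of all tested genes an adjusted p under 0.05, again without the fold threshold being reached, and under both criteria DESeq2 called 3.06% of all tested genes and none of the 10.

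The cytokines themselves were scarce in this RNA. Il4 had 16 counts and Il13 1 count over all 8 libraries, with no difference to be read at that depth. Il10 had 90, 105, 37 and 161 counts in control and 31, 69, 21 and 29 counts in CSF1 OE mice, or 6.05, 7.26, 2.80 and 9.52 CPM and 2.55, 5.07, 1.431 and 2.57 CPM. Its groups overlapped through control mouse 1874, and the log2 fold change of -1.14 (standard error 0.45) had an adjusted p of 0.255 (edgeR). Il13ra2, the decoy receptor that binds IL-13 without a STAT signal, had 22 counts in all.

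The wider pathway was read from 9 lists with 93 further genes, of which 78 passed the filter. None of the 78 was called, beside 0.440% of all tested genes. An unadjusted p under 0.05 was found for 19 of the 78, 5 of them higher in CSF1 OE mice, beside 16.5% of all tested genes. The groups did not overlap for 5 of the 78, of which 2 were higher, beside 10.3% of all tested genes. The median log2 fold change of the 78 was -0.042. Upstream of the STATs, 13 JAK kinases and negative regulators had a median of -0.035 and ran from -0.32 in Pias4, a SUMO ligase that inhibits STATs, to 0.19 in Inpp5d, the phosphatase SHIP1, with 2 genes at an unadjusted p under 0.05. The 8 genes of the IRS and PI3K branch, a second path of IL-4 signalling, ran from -0.43 in Irs1 to 0.15 in Akt1, and the 3 tested genes of the decoy and other gamma-chain receptors from -0.17 in Il21r to 0.34 in Il7r, with no unadjusted p under 0.05 in either list. With the range term, which called 9.50% of all tested genes, Il7r (0.85, adjusted p = 0.0325, edgeR) and Irs1 (-1.11, adjusted p = 0.0300, edgeR) were called.

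Among further STAT genes, Stat5a, a transducer of growth factor and gamma-chain cytokine signals, was at 20.1, 19.6, 18.4 and 12.6 CPM in control and at 21.2, 20.8, 22.2 and 26.8 CPM in CSF1 OE mice. Its groups did not overlap, by a narrow margin, and the log2 fold change of 0.36 (standard error 0.16) had an adjusted p of 0.309 (edgeR). With the range term, which called 9.50% of all tested genes, Stat5a was called (0.61, adjusted p = 0.0261, edgeR). Stat2 had a log2 fold change of 0.24 (adjusted p = 0.241, edgeR) and Stat5b one of -0.17 (adjusted p = 0.597, edgeR), and the groups of both overlapped. Of the 6 other SOCS genes, 2 had a fold change above 1 and 4 below. Cish, an inhibitor induced through STAT5, was at 5.64, 5.39, 7.18 and 8.22 CPM in control and at 4.85, 5.22, 5.38 and 2.30 CPM in CSF1 OE mice. The groups of Cish lay apart by a narrow margin, with a log2 fold change of -0.57 and an adjusted p of 0.353 (edgeR). With the range term Cish was called (-0.98, adjusted p = 0.0324, edgeR). Socs4 had the highest estimate of the list, 0.27.

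Of 20 tested target genes of IL-4 and IL-13, 16 had a fold change below 1 and 4 above, with a median log2 fold change of -0.41, 9 genes at an unadjusted p under 0.05, all of them lower, and none called. Of all tested genes, 6.44% had an unadjusted p under 0.05 with a lower value. Retnla, a secreted protein of alternatively activated macrophages, was at 13.6, 28.6, 26.6 and 18.1 CPM in control and at 7.23, 6.17, 7.97 and 13.7 CPM in CSF1 OE mice. Its groups met at control mouse 1827 and CSF1 OE mouse 2019, and its log2 fold change was -1.31 (adjusted p = 0.0899, edgeR). The range term, which called 9.50% of all tested genes, called Retnla (-1.04, adjusted p = 0.0409, edgeR), and so did DESeq2 (-1.31, adjusted p = 0.0025). Mgl2, a lectin, was at 19.9, 38.3, 40.8 and 23.6 CPM in control and at 16.3, 11.8, 13.1 and 17.3 CPM in CSF1 OE mice, without overlap (log2 fold change -1.07, adjusted p = 0.0892, edgeR). The chemokine Ccl24 was at 38.8, 44.9, 46.0 and 30.6 CPM in control and at 13.8, 29.6, 20.5 and 23.3 CPM in CSF1 OE mice, also without overlap (-0.88, adjusted p = 0.108, edgeR). Cd209a had the lowest estimate of the list and no count in CSF1 OE mouse 1936, with 0.806, 4.70, 3.78 and 1.66 CPM in control mice and 0.246, 0.0735, 0 and 1.24 CPM in CSF1 OE mice. Pparg, a nuclear receptor of lipid metabolism, had the highest estimate, 0.48, from 7 to 16 counts a library. DESeq2, which called 3.06% of all tested genes, also called Mgl2 (adjusted p = 0.00313), Ccl24 (adjusted p = 0.00742) and the lectin Clec10a (adjusted p = 0.0349), all lower. Retnla and Ccl24 are listed in the study's table from these samples, and Retnla, Mgl2, Ccl24, Clec10a, Mrc1 and F13a1 were chosen after their values were seen.

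Several of these targets are also known from the macrophages of the brain's borders. All 9 border macrophage markers had a fold change below 1, with a median log2 fold change of -0.47 and 6 at an unadjusted p under 0.05, beside 6.44% of all tested genes with a lower value at that p. None was called, beside 0.440% of all tested genes. Lower values were not particular to this list. All 8 endothelial markers (median log2 fold change -0.68), all 6 neuron markers (-0.39) and 5 of 6 oligodendrocyte markers (-0.43) were also lower. An unadjusted p under 0.05 (edgeR) was found for 3 of the endothelial markers, 0 of the neuron markers and 0 of the oligodendrocyte markers. Of 6 neutrophil markers, 5 had a fold change above 1 (median 0.27) and 0 had an unadjusted p under 0.05 (edgeR). Their sum was 45.8, 104, 79.7 and 48.4 CPM in control and 15.9, 55.6, 25.1 and 227 CPM in CSF1 OE mice. Only CSF1 OE mouse 2019 lay above the control range, and mice 1931 and 1936 lay below it. The summed level of the border macrophage markers was 2960, 4050, 3924 and 3519 CPM in control mice and 3024, 2550, 2095 and 3202 CPM in CSF1 OE mice. Mrc1, the mannose receptor CD206, is on both lists and averaged 1097 and 821 CPM (log2 fold change -0.42, adjusted p = 0.279, edgeR), and F13a1 is the other shared gene. Control mouse 1827, with the lowest border macrophage sum of the control mice, also had the lowest control value of some targets. These included Retnla, Mgl2, Clec10a, Cd209a and Mrc1, of which Mrc1 is itself part of that sum. The same mouse had the highest control value of Tgm2, Batf3 and Myc, and its Ccl24 was not the lowest. The part of the border macrophage level in the target genes was not tested. Without mouse 1827, 3 pathway genes were called, Cd163, Clec10a and Mgl2, all lower, where the same fit called 1.21% of all tested genes.

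The 14 tested target genes of IL-10 divided evenly, 7 above and 7 below 1, with a median log2 fold change of 0.0069 and none called. Nfkbiz, an atypical IκB protein, was at 431, 419.7, 537 and 363 CPM in control and at 1040.3, 434, 671 and 699 CPM in CSF1 OE mice. CSF1 OE mouse 1932 lay within the control range and the other 3 above it, and the log2 fold change of 0.70 had an adjusted p of 0.207 (edgeR). Fcgr1, an Fc receptor chosen after its values were seen, had a log2 fold change of 0.47 (adjusted p = 0.269, edgeR). It was called with the range term (0.77, adjusted p = 0.0249, edgeR), as were 9.50% of all tested genes. Cd163, the haemoglobin scavenger receptor, was at 106, 235, 337 and 281 CPM in control and at 119, 113, 89.2 and 124 CPM in CSF1 OE mice (log2 fold change -1.11, adjusted p = 0.132, edgeR), and DESeq2 called it (adjusted p = 0.0104). Control mouse 1827 lay among the CSF1 OE mice, and Cd163 is at the same time 1 of the 9 border macrophage markers.

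**Figure D5:**
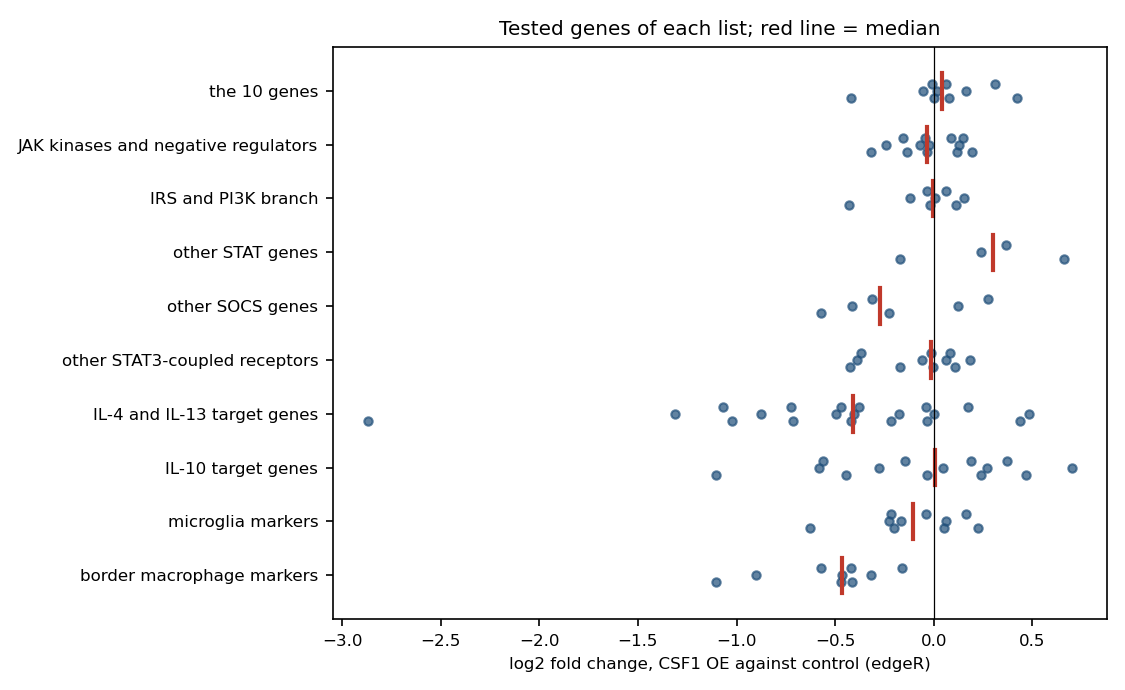
Log2 fold change, CSF1 OE against control (x axis, edgeR), of every tested gene of the 10 genes, of the pathway lists with more than 3 tested genes, and of microglia and border macrophage markers, 1 point per gene, with a red line at the median of each list. The IL-4 and IL-13 targets (median -0.41) and the border macrophage markers (median -0.47) lie to the left of 0, and the 10 genes lie around it.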

How the data were processed

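RNA of CD11b+ cells was sequenced from 4 control and 4 CSF1 OE mice, 1 library each. Per the labels, the authors used bcl2fastq 1.8.4, Bowtie 1.0.0, RSEM 1.2.7 and build mm10, and deposited expected counts per gene. In a second deposited table, used here in the limma alternatives only, the authors had divided these counts by a size factor per library, which leaves a signal. RSEM divides reads between genes, and the kit named in the labels does not keep strand. Il4ra, Stat6, Stat3, Il2rg and Il10rb share exon bases with another gene in GENCODE M21, so their counts may hold its reads. For Stat3 that gene is Stat5a, on the opposite strand, so the counts of Stat3 and Stat5a may hold each other's reads.

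Expected counts were rounded and tested with edgeR 4.0.16 under R 4.3.3 (TMM normalization, filterByExpr, glmQLFit, glmQLFTest) with Benjamini-Hochberg adjustment over 13407 genes. The study's own test, EBSeq, was not run. CPM used library sizes scaled by the TMM factors. Alternatives were DESeq2 1.42.0, limma 3.58.1 at pseudocounts of 1 and 0.1, other size factors and filters, a range term and each mouse left out. The edgeR step was tested on simulated data. The 10 genes and all lists were chosen with earlier results of these data known. Named genes were the 10, the ligands, Csf1 and Csf1r, the largest rise and fall of each pathway list and called genes. Others (Stat2, Stat5a, Retnla, Mgl2, Ccl24, Mrc1, F13a1, Clec10a, Tgm2, Batf3, Myc, Fcgr1 and Il13ra2) were chosen after their values were seen. Authors' fold changes were not used. The result of 1 pathway gene is not reported here.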

Additional observations from a re-analysis of the deposited data

Results flagged for a closer look

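In 2 of the 32 groups of 4 mice examined, 1 mouse lay far from the other 3 by Dixon's test at the 95% level, which chance does in about 1 of 20 groups. Il13ra1 was at 164 CPM in CSF1 OE mouse 2019, where the nearest of the other CSF1 OE mice was at 128 CPM and the lowest at 124 CPM. The gap was 0.907 of the group's range. Stat6 was at 176 CPM in control mouse 1934, where the nearest of the other control mice was at 256 CPM and the highest at 262 CPM. The gap was 0.926 of the range. Mouse 2019 had the highest and mouse 1934 the lowest summed microglia marker level of the 8 mice, and the part of that level in these values was not tested.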

How the results depend on the processing

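Over all tested genes, 410 were called with DESeq2, 19 with upper-quartile factors, 104 and 105 with limma at pseudocounts of 1 and 0.1, and 1273 with the range term, against 59. With 1 mouse left out the count ran from 3 (without control 1872 or 1874) to 164 (without control 1827). Of the 10 genes, 1 was called with the range term (Il4ra) and 0 when any mouse was left out. Of the 78 other pathway genes tested, 6 were called with DESeq2, which called 3.06% of all tested genes. The range term called 7 of the 78, and 9.50% of all tested genes. With a mouse left out, 0 to 3 of the other pathway genes were called.

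Il4ra kept its sign in the 16 alternatives that tested it, at log2 fold changes of 0.34 to 0.56 and adjusted p-values of 0.0236 to 0.360 (edgeR, DESeq2 or limma), and Socs3 ran from -0.59 to -0.27. Signs turned for Arg1, Il10ra, Il10rb, Il2rg, Stat3 and Stat6, with estimates near 0, and for Socs1, at 0.31, when CSF1 OE mouse 2019 was left out. With the range term Il2rg was -0.057, Stat6 0.17, Arg1 -0.16, Il10ra 0.17 and Il10rb 0.23. Arg1 was -0.012 with upper-quartile factors. Il10ra was 0.0028 with no filter, 0.013 with limma at either pseudocount and 0.041 per microglia sum, where Il10rb was 0.025. Leaving out 1 mouse gave ranges of -0.24 to 0.40 for Arg1, -0.092 to 0.087 for Il10ra, -0.15 to 0.10 for Il10rb, -0.015 to 0.17 for Il2rg, -0.17 to 0.56 for Socs1, -0.064 to 0.17 for Stat3 and -0.16 to 0.041 for Stat6. For the log2 ratios it gave -0.11 to 0.12 for Il10ra to Il10rb and -0.12 to 0.56 for Socs1 to Stat6. Within the numbers from 1931 to 1936, Il4ra to Il2rg differed by 0.88 and Stat3 to Stat6 by -0.078, and within the other numbers Socs1 to Stat6 differed by 1.11. The cause was not tested. No paired analysis was possible because the groups share no animal numbers. Depth limits Arg1 and Socs1, with at most 28 counts a library.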

Other observations

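Receptors that share STAT3 with the IL-10 receptor were read as well. Of 11 tested genes, 4 had a fold change above 1 and 7 below, with a median log2 fold change of -0.014, none called and none at an unadjusted p under 0.05. Csf3r, the receptor of granulocyte colony-stimulating factor, had the highest estimate, at 432, 438, 319 and 223 CPM in control mice and 432, 329.6, 336 and 505 CPM in CSF1 OE mice (log2 fold change 0.18, adjusted p = 0.720, edgeR). Lifr, the receptor of leukaemia inhibitory factor, had the lowest, at 41.9, 62.8, 86.5 and 54.1 CPM in control mice and 54.3, 36.2, 41.2 and 51.3 CPM in CSF1 OE mice (-0.42, adjusted p = 0.374, edgeR). The groups overlapped in both genes, and CSF1 OE mouse 2019 and control mouse 1934 were again the extremes of Csf3r.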
